A study of Caenorhabditis elegans with 3 samples.

Results

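The troponin genes of *Caenorhabditis elegans* were followed in hermaphrodites at the late L4 stage, the last larval stage before adulthood. Members were the features whose gene symbol in the platform annotation was 1 of 10 names: the troponin T genes *mup-2*, *tnt-2*, *tnt-3* and *tnt-4*, the troponin I genes *tni-1*, *unc-27*, *tni-3* and *tni-4*, and the troponin C genes *pat-10* and *tnc-2*. All 10 were found, each as 1 feature measured on every array, among 19292 rows in all, of which 15112 were named genes and 4180 were features without a single gene name. By the muscle in which each form is known to be expressed, 7 were taken as body wall forms and 3 (*tnt-4*, *tni-4* and *tnc-2*) as pharyngeal forms. Some body wall forms are also known from vulval and other non-pharyngeal muscles, so the name of the class is a shorthand.

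The only group consisted of 3 two-colour arrays, 1 for each late L4 RNA preparation (prep 1, 2 or 3), read in channel 2 against a mixed RNA of wild-type worms, the reference, in channel 1. The source label of each prep carries the code TP05, which it does not explain. Apart from this code, the labels name neither a strain nor a treatment for the late L4 animals. They do not say which stages the reference mixed. They also do not say whether the preps were separate cultures, so the p-values rest on a spread that may be technical only. The labels place late L4 RNA in channel 2 on every array and name no dye swap. Each array was its own hybridisation, so channel or dye, array and prep cannot be told apart from the RNA. Values were log2 ratios, positive where late L4 RNA gave more signal than the reference. That direction is likely from the order in which the descriptions name the RNAs, but it is not stated with the values, and if it were the opposite every sign below would turn.

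Troponin is the calcium switch of striated muscle, sitting with tropomyosin along the actin filament. Troponin C binds calcium, troponin I holds back the interaction of actin with myosin, and troponin T ties the complex to tropomyosin. The worm uses separate sets of these genes in the body wall muscles, which move the animal, and in the pharyngeal muscles, which pump food.

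In late L4, 5 of the 10 troponin genes were higher than in the reference, 1 was lower and 4 did not pass the test (limma, mean of 3 arrays against 0, Benjamini-Hochberg adjusted p under 0.05 over all 19292 rows). Over all rows 12.0% were higher, 10.8% were lower and 22.9% passed in either direction. Of the 7 body wall forms, 4 were higher (*tnt-2*, *mup-2*, *unc-27* and *tni-1*), 0 were lower and 3 did not pass. Of the 3 pharyngeal forms, *tnt-4* was higher, *tnc-2* was lower and *tni-4* did not pass. The median of the means was 0.73 over the 10 genes, against -0.03 over all rows. On single arrays, 8 genes lay above 0 on all 3, *tnc-2* lay below 0 on all 3, and *tni-3* had both signs.

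**Figure D1:**
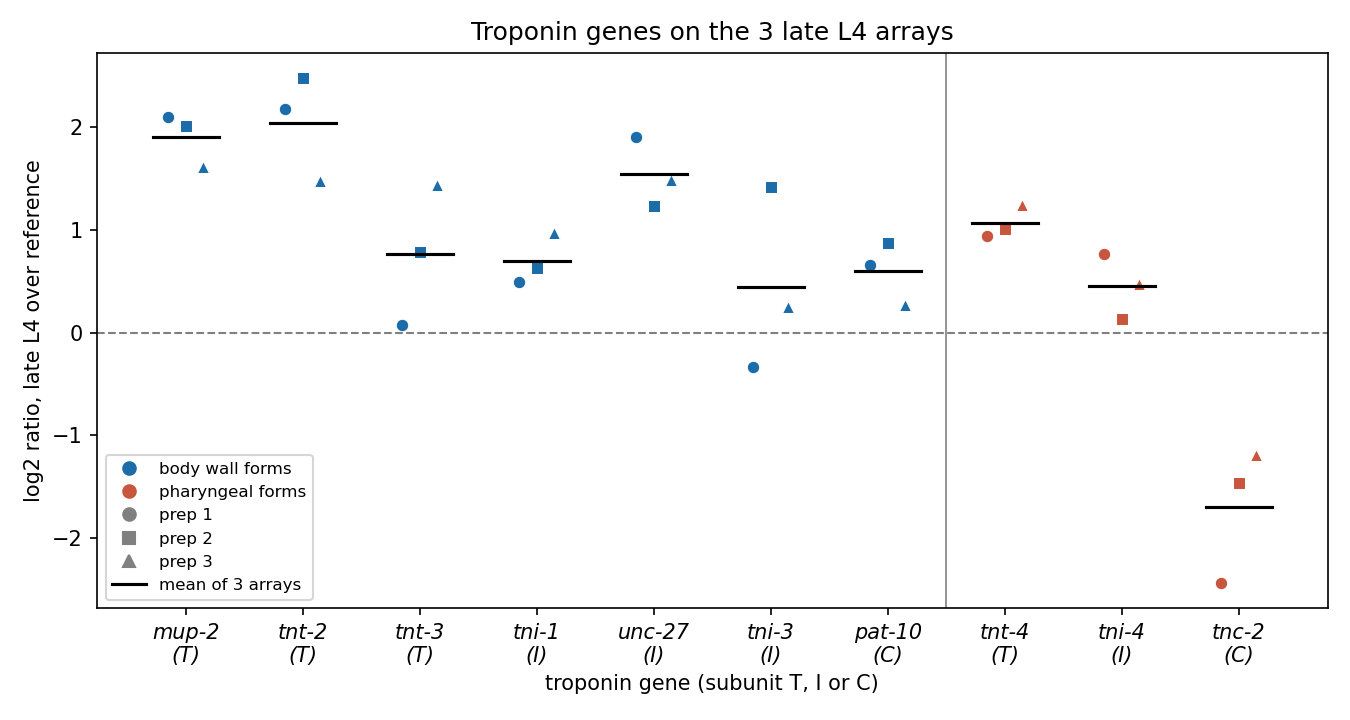
Log2 ratio of late L4 over reference (vertical axis) for each of the 10 troponin genes, body wall forms in blue on the left and pharyngeal forms in red on the right, with 1 point per array (circle prep 1, square prep 2, triangle prep 3) and a bar at the mean. The highest mean is that of *tnt-2* at 2.04, and the points of *tnc-2*, between -2.43 and -1.19, lie below those of the other 9 genes.

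Among the troponin T genes, the tropomyosin-binding subunit, *tnt-2* and *mup-2* stood highest. *tnt-2* (F53A9.10, X chromosome) gave log2 ratios of 2.17 for prep 1, 2.47 for prep 2 and 1.47 for prep 3. Its mean of 2.04 ± 0.51 (SD, n = 3) is 4.11-fold (limma, adjusted p = 3.42e-05), and it ranked at the 97.6 percentile of all rows. *mup-2* (T22E5.5, X chromosome), named for the muscle positioning defect of its mutants, had 2.10, 2.01 and 1.61, a mean of 1.91 ± 0.26 or 3.75-fold (limma, adjusted p = 3.39e-05). Both genes were far above the reference on every array, and they lay close together: the mean of *tnt-2* exceeded that of *mup-2* by 0.13 ± 0.30, with *tnt-2* above on only 2 of 3 arrays.

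*tnt-3* (C14F5.3, X chromosome), the other body wall troponin T gene, varied far more. Its log2 ratios were 0.08 on prep 1, 0.78 on prep 2 and 1.44 on prep 3, so that it was near the reference level on 1 array and close to *tnt-2* on another. The mean of 0.77 ± 0.68 missed the threshold (limma, adjusted p = 0.059, 95% interval 0.18 to 1.35 before adjustment), while without prep 1 it was 1.11 and passed (limma, adjusted p = 0.012). It was below *mup-2* and below *tnt-2* on all 3 arrays, by -1.14 ± 0.93 and -1.27 ± 1.09 on average. Both differences were nearly closed on prep 3, at -0.17 and -0.04.

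*tnt-4* (T08B1.2, chromosome V), the pharyngeal troponin T gene, was higher in late L4 with the tightest values of all members. Its log2 ratios were 0.94, 1.00 and 1.24, with a mean of 1.06 ± 0.16 or 2.09-fold (limma, adjusted p = 0.00397). The SD ranked at the 11.8 percentile of the SDs of all rows. *tnt-4* lay below *mup-2* and *tnt-2* on all 3 arrays and above *tnt-3* on 2 of 3.

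Among the troponin I genes, which encode the inhibitory subunit, *unc-27* stood out. *unc-27* (ZK721.2, X chromosome), whose mutants move in an uncoordinated way, had log2 ratios of 1.90, 1.23 and 1.48, a mean of 1.54 ± 0.34 or 2.90-fold (limma, adjusted p = 0.000271). *tni-1* (F42E11.4, X chromosome) had 0.49, 0.63 and 0.97, all above 0 and all below *unc-27*, from which it differed by -0.84 ± 0.49. Its mean of 0.70 ± 0.24, or 1.62-fold, passed narrowly (limma, adjusted p = 0.049), and leaving out any 1 prep ended the call (limma, adjusted p from 0.080 to 0.25).

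*tni-3* (T20B3.2, chromosome V) was the least repeatable member. Its log2 ratios were -0.34, 1.41 and 0.25, below the reference on prep 1 and 2.66 times it on prep 2. The mean of 0.44 ± 0.89 did not pass (limma, adjusted p = 0.34), its SD ranked at the 95.1 percentile of all rows, and without prep 2 the mean turned to -0.05. No direction can be given for *tni-3* from these arrays.

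*tni-4* (W03F8.1, chromosome IV), the pharyngeal troponin I gene, had log2 ratios of 0.77, 0.14 and 0.47. All 3 were above 0, but the mean of 0.46 ± 0.32 did not pass (limma, adjusted p = 0.21), with a 95% interval of -0.06 to 0.98. *unc-27* exceeded it by nearly the same amount on every array, 1.14, 1.09 and 1.01, with a mean difference of 1.08 ± 0.06. The other body wall troponin I genes did not keep such a distance: *tni-1* exceeded *tni-4* on 2 of 3 arrays and *tni-3* on 1 of 3.

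The troponin C genes, which encode the calcium-binding subunit, lay on opposite sides of the reference. *pat-10* (F54C1.7, chromosome I), the body wall form, whose loss gives paralysed embryos that stop elongating, had log2 ratios of 0.66, 0.87 and 0.27. Its mean of 0.60 ± 0.31 or 1.52-fold did not pass (limma, adjusted p = 0.094; 95% interval 0.08 to 1.12 before adjustment). *tnc-2* (ZK673.7, chromosome II), the pharyngeal form, had -2.43, -1.46 and -1.19, which are ratios of 0.185, 0.364 and 0.437 of the reference.

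*tnc-2* was thus the only troponin gene lower in late L4, at 3.24-fold (mean -1.70 ± 0.65; limma, adjusted p = 0.000284). Its 3 values ranked at the 0.964, 2.01 and 5.19 percentiles of all rows on their arrays. It lay below the other pharyngeal forms on every array, on average by -2.76 ± 0.53 from *tnt-4* and by -2.15 ± 0.91 from *tni-4*. Of the 3 pharyngeal forms, *tnc-2* alone was below the reference. *tnt-4* and *tni-4* were above it on 3 of 3 arrays, though *tni-4* did not pass. The sequence of the *tnc-2* probe was not used here, so whether it also measured another calcium-binding gene was not tested.

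**Figure D2:**
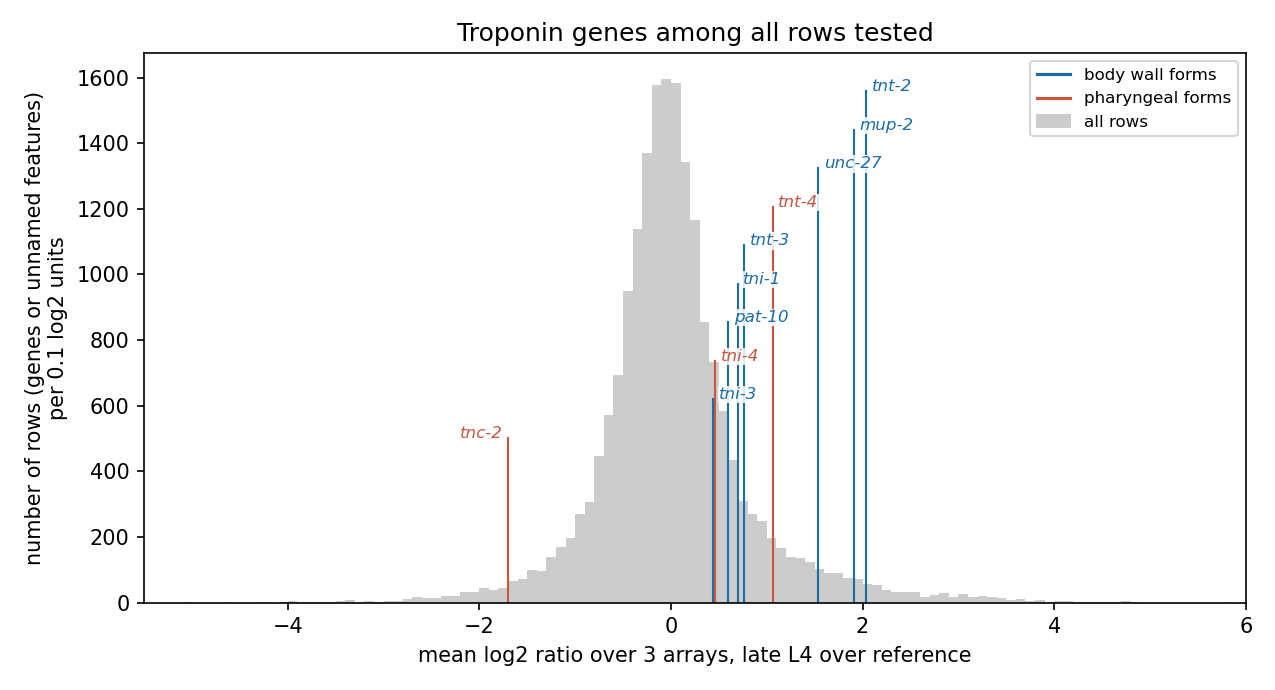
Number of rows per 0.1 log2 units of mean log2 ratio (grey), with the mean of each troponin gene marked by a line, blue for body wall and red for pharyngeal forms. The heights of the lines carry no value. *tnc-2* lies at the 1.75 percentile of all rows, and the other 9 genes lie between the 79.7 and 97.6 percentiles.

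Ordered by mean log2 ratio, the genes ran *tnt-2*, *mup-2*, *unc-27*, *tnt-4*, *tnt-3*, *tni-1*, *pat-10*, *tni-4*, *tni-3* and *tnc-2*. In 8 of the 9 neighbouring pairs the ranges over the 3 arrays overlapped. Taken within arrays, *mup-2* was nevertheless above *unc-27* on 3 of 3 arrays, by 0.37 ± 0.36, and *unc-27* was above *tnt-4* on 3 of 3, by 0.48 ± 0.42, while in the other 6 of these pairs the difference had both signs and a mean smaller than its SD. In the last pair *tni-3* exceeded *tnc-2* by 2.14 ± 0.72, with no overlap. None of these differences between neighbours was tested. These are ratios to the reference, and they do not say which troponin gene was more abundant.

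Body wall forms were then set against pharyngeal forms on the same arrays. The 7 body wall forms averaged 1.01 (prep 1), 1.34 (prep 2) and 1.07 (prep 3) in log2 ratio, and the 3 pharyngeal forms had -0.24, -0.11 and 0.17. The body wall mean was above the pharyngeal mean on 3 of 3 arrays, by 1.20 ± 0.28 (SD, n = 3). No p is given for this difference, because the genes of each class were chosen with results of these arrays known; an exact sign-flip test over 3 arrays could not go below 0.25.

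Most of this difference came from *tnc-2*. Without it the pharyngeal mean was 0.85, 0.57 and 0.86 and the body wall forms were above by 0.16, 0.77 and 0.21, a mean of 0.38 ± 0.34. Without *tnt-4* the difference was 1.76, and leaving out any 1 of the other 8 genes kept it between 1.05 and 1.46. With the median of each class in place of its mean it was 0.65.

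The subunits differed in size. For troponin C, *pat-10* minus *tnc-2* was 3.09, 2.33 and 1.46, a mean of 2.30 ± 0.81 and above 0 on 3 of 3 arrays. For troponin T, the mean of the 3 body wall genes exceeded *tnt-4* by 0.51, 0.75 and 0.27, a mean of 0.51 ± 0.24. For troponin I, the difference from *tni-4* was -0.08, 0.95 and 0.43, a mean of 0.43 ± 0.52, and did not keep its sign. Gene by gene, 4 of 7 body wall forms (*mup-2*, *tnt-2*, *unc-27* and *pat-10*) were above the pharyngeal form of their subunit on 3 of 3 arrays, *tni-1* was so on 2, and *tnt-3* and *tni-3* were so on 1.

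**Figure D3:**
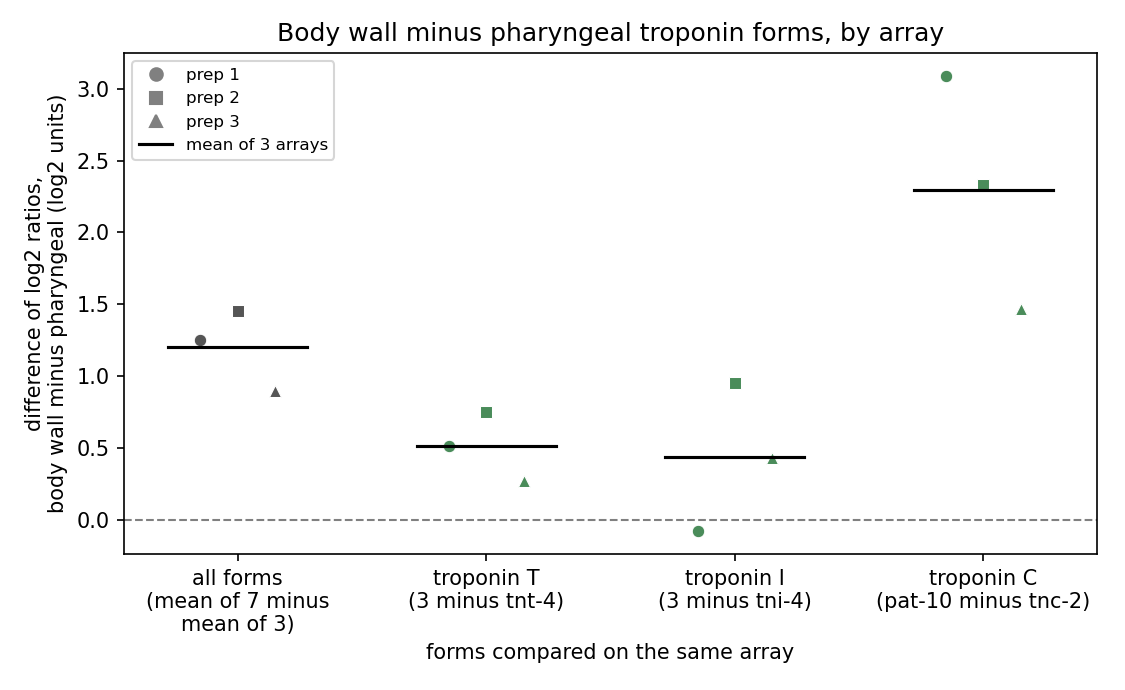
Body wall minus pharyngeal log2 ratio on the same array (vertical axis, log2 units) over all forms and within troponin T, I and C, with 1 point per array and a bar at the mean. The troponin C points, 1.46 to 3.09, lie above all troponin T and I points, which reach 0.95 at most.

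Chromosome and muscle class overlapped in part. All 5 X-linked troponin genes were body wall forms, 4 of them higher and 1 not passing, with a median of 1.54. The 5 autosomal members, the pharyngeal forms with *tni-3* and *pat-10*, had 1 higher, 1 lower and 3 not passing, with a median of 0.46. Over all 2275 X-linked genes the median was -0.14, with 7.52% higher and 14.4% lower, and over 12837 autosomal genes it was -0.02, with 13.6% higher and 11.6% lower. Muscle class and chromosome cannot be told apart within so few genes.

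Genes taken as markers of each muscle were examined next to the troponins, since whole-animal RNA does not separate more muscle from more transcript per muscle cell. Whether each marker is restricted to its muscle was not tested, so a higher marker is not by itself a sign of more of that muscle. Of 7 body wall muscle markers, 3 were higher and 0 lower, with a median of 0.64, beside 12.0% of all rows higher. These were *unc-52*, the perlecan gene (2.04 ± 0.36), *myo-3*, a body wall myosin heavy chain gene (1.97 ± 0.20), and *unc-15*, the paramyosin gene (1.87 ± 0.07), all within the range of *unc-27* to *tnt-2*. The rest did not pass: *unc-22*, the twitchin gene, had 0.64 ± 0.33, *unc-54*, the major body wall myosin gene, 0.35 ± 0.89, and the muscle transcription factor genes *unc-120* and *hlh-1* -0.13 ± 0.23 and -0.22 ± 0.06.

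Of 6 measured pharyngeal markers, 0 passed in either direction in limma (2 at an unadjusted p under 0.05), with a median of 0.05. Over all rows 22.9% passed in either direction, and 6378 of 19292 had an unadjusted p under 0.05 in limma. With 6 genes, a count of 0 cannot be told apart from that share. The pharyngeal myosin genes were *myo-1* at 0.79 ± 0.77 (adjusted p = 0.060; 1.23 and adjusted p = 0.00481 without prep 1), *myo-5* at 0.48 ± 0.60 and *myo-2* at 0.07 ± 0.22. The acetylcholine receptor gene *eat-2* had 0.03 ± 0.26, and the transcription factor genes *pha-4* and *ceh-22* had -0.50 ± 0.40 and -0.61 ± 0.26. None of the 6 markers had a mean as low as that of *tnc-2* or as high as that of *tnt-4*. Of 3 sex muscle markers, *egl-15*, an FGF receptor gene, was lower (-1.26 ± 0.49; limma, adjusted p = 0.00197), and *hlh-8* (-0.24 ± 0.23) and *arg-1* (0.08 ± 0.24) did not pass. All rows had 10.8% lower, and a list of 3 genes is too short to be set against that share. What part a change in the amount of either muscle has in the troponin values was not tested.

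Of 14 measured genes in a list of other thin filament genes, 9 were higher and 0 lower, with a median of 0.91. Over all rows 12.0% were higher. The 9 include *act-1* to *act-4*, and *lev-11* of this list matched no row. Without prep 3, 5 genes were called higher. *clik-1*, a calponin-like repeat gene, was 3.84-fold higher (1.94 ± 0.52), and the actin genes *act-3* and *act-4* were 2.81-fold and 2.80-fold higher (1.49 ± 0.17 and 1.49 ± 0.34). The actin genes *act-1* to *act-4* are near-identical copies, so their values may not be 4 separate signals. *act-1*, *act-3* and *act-4* were each highest on prep 2 and lowest on prep 3. *act-2* went the other way, with log2 ratios of 1.21 for prep 1, 0.72 for prep 2 and 1.91 for prep 3. Of 11 thick filament and giant kinase genes, 3 were higher and 0 lower, with a median of 0.64, beside 12.0% higher and 22.9% called in either direction over all rows: *myo-3* and *unc-15*, given above, and *ttn-1*, the titin-like gene (0.96 ± 0.36), whose call was lost without prep 2 (limma, adjusted p = 0.085) and without prep 3 (adjusted p = 0.061).

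On the calcium side of the switch, 2 of 11 calcium handling genes were higher and 0 lower, with a median of 0.18. With 12.0% of all rows higher and 22.9% called in either direction, this count is near that of all rows. These were *sca-1*, the calcium pump of the sarcoplasmic reticulum (1.23 ± 0.92), and *unc-68*, the ryanodine receptor gene (1.02 ± 0.34). The call of *sca-1* ended without prep 2 (mean 0.70; limma, adjusted p = 0.15) and that of *unc-68* without prep 3 (limma, adjusted p = 0.069). Of 6 calmodulin and calmodulin-like genes, relatives of troponin C by their calcium-binding EF-hands, 3 were lower and 0 higher, with a median of -0.69, beside 10.8% of all rows lower. *cal-2* (-1.33 ± 1.02), *cal-1* (-1.24 ± 0.19) and *cal-4* (-0.85 ± 0.49) were lower, while calmodulin itself, *cmd-1*, had 0.31 ± 0.21 and did not pass. Without prep 3 the *cal-1* call alone was left (limma, adjusted p = 0.11 for *cal-2* and 0.15 for *cal-4*), and *cal-4* also missed the threshold without prep 1 (limma, adjusted p = 0.15) and with arrays centred and scaled (adjusted p = 0.056).

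**Figure D4:**
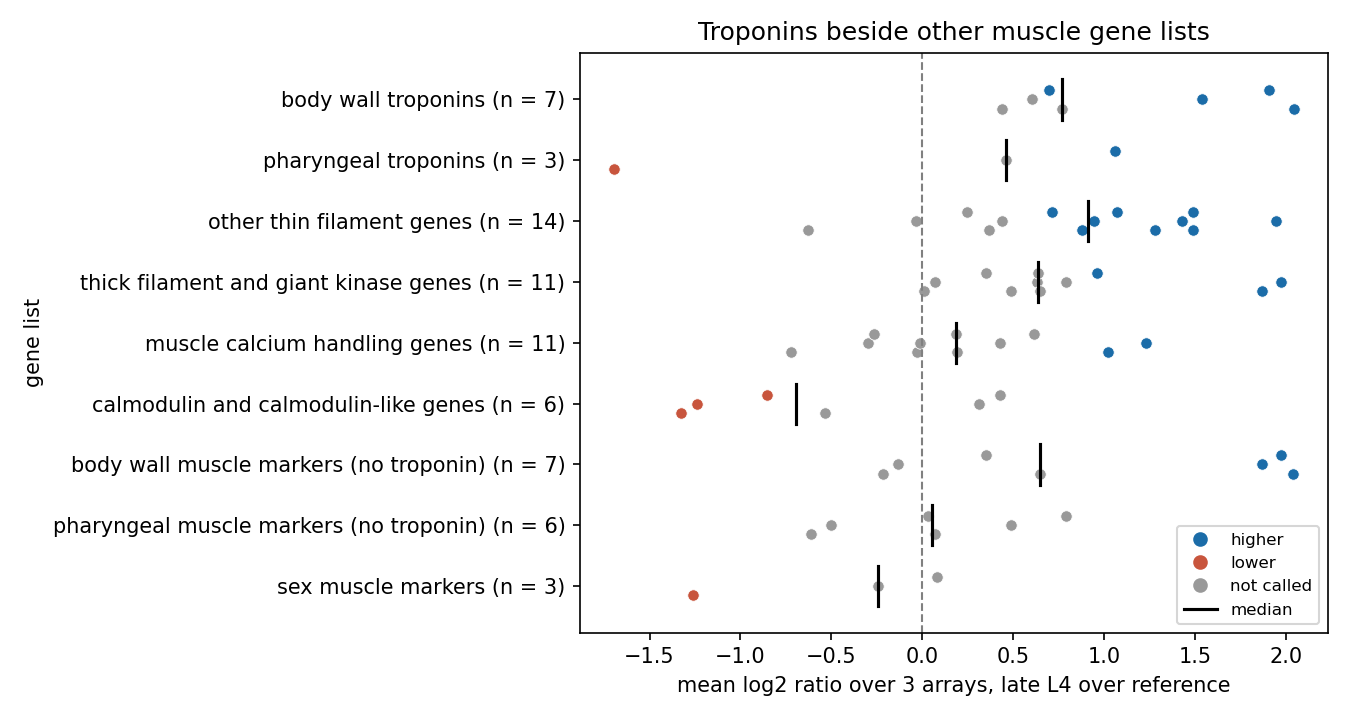
Mean log2 ratio of late L4 over reference (horizontal axis) for each measured gene of the troponin classes and of 7 other lists, blue where higher, red where lower and grey where the test was not passed, with a bar at each list's median. Body wall troponins, other thin filament genes and thick filament genes have medians of 0.77, 0.91 and 0.64, and the pharyngeal troponins spread from -1.70 to 1.06 around 0.46. Some genes stand in more than 1 list.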

How the data were processed

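The values the authors deposited are log2 numbers for 20000 features on 3 arrays, with 19825 to 19903 measured per array. Raising 2 to each value gave a multiple of 0.001 (tolerance 0.05 of a step) for 100% of values, so they are base-2 logarithms of ratios. The sources used here give neither dyes nor background correction, normalization or kind of probe, and spot signals were not used, so dim spots could not be filtered. Array medians were 0.01, -0.10 and -0.06; values were used as deposited, without centring.

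Symbols came from the platform annotation, updated by Entrez ID in a RefSeq gene table for assembly WBcel235; 15569 of 15655 features with 1 symbol matched, and chromosomes come from that table. Features on all 3 arrays (19736) were averaged per gene. A two-sided moderated test of each row's mean against 0 was run with limma 3.58.1 under R 4.3.3 (functions lmFit, eBayes). It had 2 residual and 12.8 prior degrees of freedom. The reference had no sample of its own. Its signal on each array is part of the ratio and so of the SD, but a spread between separate reference preparations was not measured. Errors are SDs over arrays, and the number of arrays limits the precision. The procedure was tested on simulated data. Those were drawn with independent errors and the spread that the method itself fits, so they cannot show whether the spread between the real arrays is technical only. Pearson correlations between arrays across rows were 0.69 to 0.73; genes are not independent replicates.

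Members, muscle classes and gene lists were chosen with earlier results of these data known. Genes named are all members and muscle markers, the called members of each other list up to 3 with the largest absolute mean, and the 3 genes nearest to the highest and the lowest member; *cmd-1*, *act-1* and *act-2* were added after their values were seen. *lev-11*, *mlc-1*, *mlc-2*, *mca-3* and *eat-18* matched no row and were not analysed here.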

Additional observations from a re-analysis of the deposited data

How the results depend on the processing

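No paired analysis was possible because all arrays belong to 1 group. Without moderation of the variance, which leaves 2 degrees of freedom per gene, limma called 0 rows higher and 0 lower (1874 and 2340 at an unadjusted p under 0.05), and 0 and 0 troponin genes, against 2322, 2092, 5 and 1; the 6 called troponin genes then had adjusted p from 0.15 to 0.22. Lower rows numbered 1217 at an adjusted p under 0.01 and 1168 at 2-fold or more, both stricter thresholds, and 1337 to 1776 with 1 prep left out, which fits fewer arrays; higher rows then numbered 1804 to 2055. Median centring gave 2346 higher and 1707 lower rows. The body wall minus pharyngeal difference was 0.65 with class medians, 1.76 without *tnt-4*, 0.38 without *tnc-2*, and 1.07 to 1.35 with 1 prep left out. *tni-3* ranged from -0.046 (without prep 2) to 0.83 (without prep 1). Alternatives for the other muscle genes were chosen after seeing the data; with 1 prep left out the mean changed sign for *unc-54* (-0.15 to 0.73), *myo-2* (-0.032 to 0.19), *eat-2* (-0.074 without prep 1, -0.0066 without prep 3, 0.17 without prep 2) and *arg-1* (-0.048 to 0.19). *tni-1* also lost its call with values on at least 2 arrays (adjusted p = 0.052) and with features not averaged (adjusted p = 0.0502), since it lies at the threshold. *tnc-2*, *unc-27*, *tnt-2*, *mup-2* and *tnt-4* kept direction and call at an adjusted p under 0.05 in each alternative but the unmoderated one. Signal over background is unknown, so what it limits could not be tested.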

Other observations

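Over the 3 log2 ratios, the named genes nearest to *tnt-2* by Euclidean distance were *Y38F1A.1* (distance 0.065 log2 units), *lipl-5* (0.17) and *clik-1* (0.17). Nearest to *tnc-2* were *rab-14* (0.11), *rocf-1* (0.11) and *K09E4.4* (0.21). These are likenesses over 3 arrays among 15112 named genes.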
